A study of Rattus norvegicus with 5 samples.

Results

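C1qa, C1qb and C1qc encode the A, B and C chains of complement C1q, and they were examined as a family in the microglia of rats born to CYP11A1-overexpressing or control dams. The members were taken by their Ensembl identifiers, which are ENSRNOG00000012807 for C1qa, ENSRNOG00000012749 for C1qb and ENSRNOG00000012804 for C1qc. All 3 genes were found among the 35495 features of the deposited tables. Pregnant Sprague Dawley rats had been injected in the tail vein on gestational day 8.5 with adenovirus carrying CYP11A1 cDNA behind a CMV promoter or with the empty control adenovirus, and both vectors also carried a green fluorescent protein. The methods describe injection of the dams only, so that the offspring are a model of maternal treatment. The offspring were males, and their age is 6 to 8 weeks in the methods and 3 months in the labels. The cells were isolated from minced brain on Percoll gradients, and sequencing libraries of 2 rats born to control dams (called control 1 and control 3) and of 3 rats born to CYP11A1 dams (called CYP11A1 1, 2 and 3) were analysed. The group size in the legend of the sequencing results is 3 rats, and a further control was not used here. The sources do not say whether the rats of a group came from separate litters, so that the p-values measure only the spread between these libraries.

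C1q is the recognition molecule that starts the classical complement pathway. Its A, B and C chains each have a collagen-like tail and a globular head, and they assemble in equal numbers into a bouquet-shaped protein that carries the proteases C1r and C1s. In the brain, microglia are the main source of C1q, and the chain transcripts are known as some of the most abundant mRNAs of these cells. C1q also marks synapses for removal by microglia during development. The genes lie side by side on chromosome 5 in the order C1qb, C1qc and C1qa, with no other annotated gene between them in the RefSeq table (assembly GRCr8), which was used here for names and neighbours because the sources used here name no genome build for the counts.

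Promoter sequences of C1qa and C1qb are shown to give the DNA directly upstream of these family members, and that of C1qc was not used here. The stretches are the 250 bases upstream of each gene's start from RefSeq (GRCr8, minus strand of the chromosome, written 5′ to 3′ along the gene), and they lie at chr5:154419934-154420183 for C1qa and chr5:154407828-154408077 for C1qb. Capitals mark matches, on either strand, to TGCTGA (a core of sites bound by Maf factors), GAGGAA (the PU box of the myeloid factor PU.1) and GGAAGT (an ETS family core, which can overlap the PU box).
C1qa: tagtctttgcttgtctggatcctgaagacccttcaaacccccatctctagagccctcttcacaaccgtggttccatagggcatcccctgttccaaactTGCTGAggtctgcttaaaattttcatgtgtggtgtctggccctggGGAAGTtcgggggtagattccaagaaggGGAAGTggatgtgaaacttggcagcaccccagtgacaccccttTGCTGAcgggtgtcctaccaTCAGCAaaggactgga
C1qb: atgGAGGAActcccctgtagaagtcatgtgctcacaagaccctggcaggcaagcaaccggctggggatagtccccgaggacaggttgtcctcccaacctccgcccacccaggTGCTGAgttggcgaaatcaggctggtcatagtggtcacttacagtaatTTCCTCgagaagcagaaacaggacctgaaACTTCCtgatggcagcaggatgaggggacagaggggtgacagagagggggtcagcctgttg
C1qa held TGCTGA at positions -152, -36 and -16 from the start (the first letter of each match, on the strand as printed) and GGAAGT at -107 and -79. C1qb held TGCTGA at -138, GAGGAA at -247 and -90 and GGAAGT at -61. Of 33469 rat promoters of the same length, 15.1% held TGCTGA, 23.3% held GAGGAA and 19.2% held GGAAGT. These letters were chosen with the sequences at hand, and a match describes the sequence only.

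The libraries held 9623896 to 13624545 counts, and the numbers of features with at least 1 count ranged from 10766 to 16969. The fewest features were found in CYP11A1 3 (10766) and control 1 (12042), although these libraries had the most counts. The 10 most counted features took between 37.49% of the counts, in CYP11A1 3, and 65.41%, in CYP11A1 1. The TMM factor of edgeR, which corrects a library's total for such differences in make-up, was lowest in CYP11A1 1 (0.615) and highest in CYP11A1 2 (1.36). The files do not pair other identifiers with gene symbols, so other markers of microglia and markers of neurons, astrocytes, oligodendrocytes and blood cells were not analysed here.

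C1q transcripts were detected in all 5 libraries, at moderate levels. C1qa had 206 and 30 counts in controls 1 and 3, and 181, 68 and 274 counts in CYP11A1 1, 2 and 3. C1qb had 155 and 31 counts in controls 1 and 3, and 147, 41 and 485 counts in CYP11A1 1, 2 and 3. C1qc had 65 and 56 counts in controls 1 and 3, and 53, 32 and 42 counts in CYP11A1 1, 2 and 3. C1qa and C1qb were thus high in 1 control library and 2 CYP11A1 libraries and low in control 3 and CYP11A1 2, while C1qc ranged only from 32 to 65 counts. The summed C1q level was 31.3 CPM (counts scaled to a common total) in control 1 (95% Wilson interval 28.4 to 34.4) and 12.2 CPM in control 3 (10.1 to 14.6). It was 34.5 CPM in CYP11A1 1 (31.2 to 38.1), 13.4 in CYP11A1 2 (11.4 to 15.8) and 60.5 in CYP11A1 3 (56.5 to 64.8). The intervals of control 3 and CYP11A1 2 overlapped, as did those of control 1 and CYP11A1 1, and CYP11A1 3 stood above the other libraries on this scale. With the TMM factor, the summed level was 32.3 and 11.4 CPM in controls 1 and 3 and 56.1, 9.9 and 51.8 CPM in CYP11A1 1, 2 and 3, so that CYP11A1 1 was then the highest library and stood above control 1. The Wilson intervals cover counting error only, and they treat each read as an independent molecule. Amplified reads without molecular identifiers are not independent molecules, so these intervals can be too narrow.

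**Figure D1:**
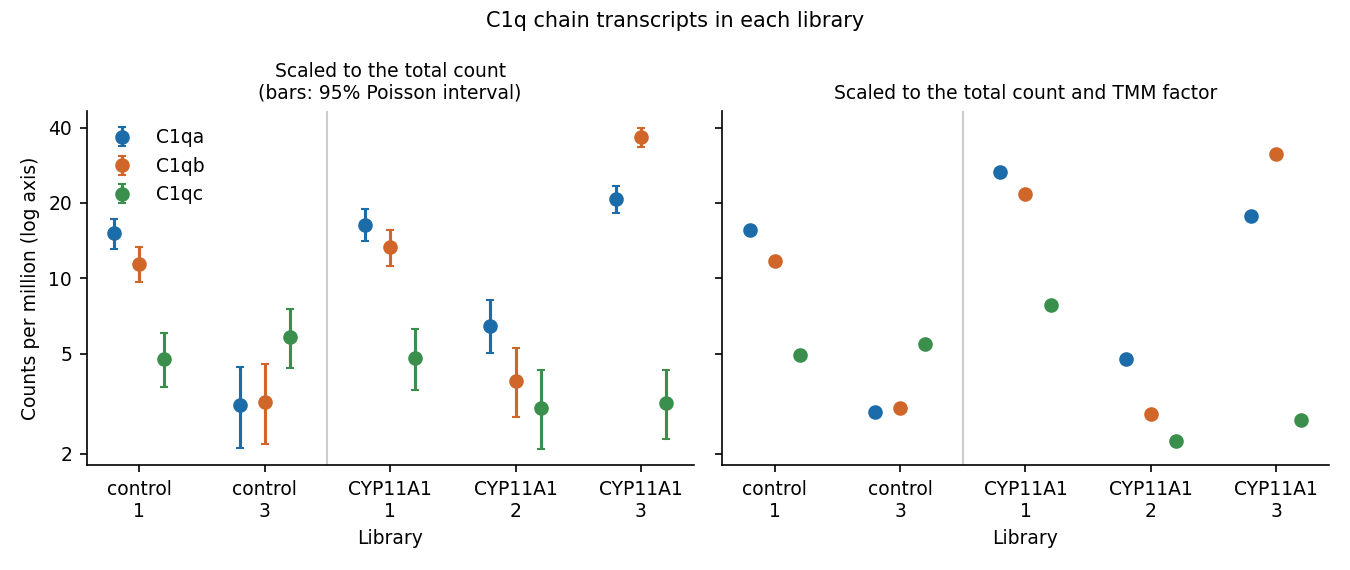
CPM (log axis) of C1qa, C1qb and C1qc in each of the 5 libraries, scaled to the total count (left, bars are 95% Poisson intervals) and to the total count and TMM factor (right, no error drawn). C1qa and C1qb are lowest in control 3 and CYP11A1 2, and the 2 groups overlap for each chain.

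Levels of the chains were compared per length as FPKM, in which the deposited values corresponded to lengths of 1048 bases for C1qa, 1083 for C1qb and 1090 for C1qc. C1qa was at 14.4 and 2.97 FPKM in controls 1 and 3, and 15.6, 6.17 and 19.7 FPKM in CYP11A1 1, 2 and 3. Its rank by FPKM among the detected features lay between 1157 of 15828 in CYP11A1 1 and 4303 of 14953 in control 3. C1qa was thus within the top 7.31% of features at its best rank and within the top 28.8% at its worst. C1qb was at 10.5 and 2.97 FPKM in controls 1 and 3, and 12.3, 3.602 and 33.8 FPKM in CYP11A1 1, 2 and 3, with ranks from 1304 of 10766 in CYP11A1 3 to 4382 of 16969 in CYP11A1 2. C1qc was at 4.38 and 5.34 FPKM in controls 1 and 3, and 4.40, 2.79 and 2.91 FPKM in CYP11A1 1, 2 and 3, with ranks from 2611 of 15828 in CYP11A1 1 to 5151 of 16969 in CYP11A1 2. As a share of the detected features, C1qb was lowest in control 3 (top 28.8%) and C1qc in CYP11A1 3 (top 40.8%). The best rank of any chain in any library was thus 1157, whereas C1q mRNAs are known to rank near the top in microglia. For scale, the 99th percentile of the detected features lay between 470 FPKM in CYP11A1 1 and 1070 FPKM in CYP11A1 3. The authors estimated the purity of the isolated cells by Cd11b staining, and that estimate is not broken down by library. Fewer microglia in a preparation and less C1q RNA per cell cannot be told apart in these bulk libraries.

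**Figure D2:**
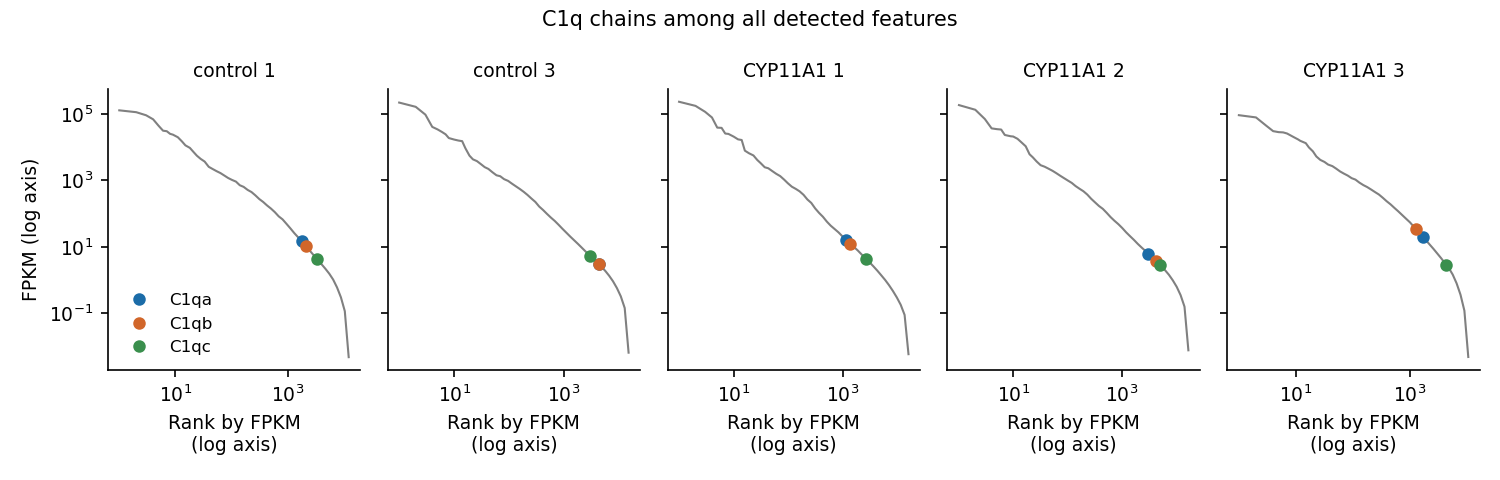
FPKM (log axis) against rank by FPKM (log axis) for all features with at least 1 count, one panel per library, with the C1q chains as coloured points. The chains lie between rank 1157 and rank 5151, well below the most abundant features, and the C1qa and C1qb points coincide in control 3.

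The make-up of the C1q transcripts differed between libraries. In control 1, C1qc gave 15.3% of the C1q counts (95% Wilson interval 12.2 to 19.0). In control 3 it gave 47.9% (39.0 to 56.8) and was the leading chain by FPKM. The libraries of the same group thus had intervals that did not overlap. C1qc gave 13.9% (10.8 to 17.7) in CYP11A1 1, 22.7% (16.6 to 30.3) in CYP11A1 2 and 5.24% (3.90 to 7.01) in CYP11A1 3. C1qb gave 60.5% of the C1q counts in CYP11A1 3 (57.1 to 63.9) and led by FPKM there, and its highest share in any other library was 38.6% (33.8 to 43.6), in CYP11A1 1. In control 1, CYP11A1 1 and CYP11A1 2 the order by FPKM was C1qa, C1qb and C1qc, and C1qa made up 48.4%, 47.5% and 48.2% of the C1q counts. In CYP11A1 2 the counting intervals of C1qb (22.2% to 37.0%) and C1qc (16.6% to 30.3%) overlapped, so these neighbours in the order were not resolved at this depth. The same held for C1qa (42.5% to 52.5%) and C1qb (33.8% to 43.6%) in CYP11A1 1 and for C1qa and C1qb in control 3.

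**Figure D3:**
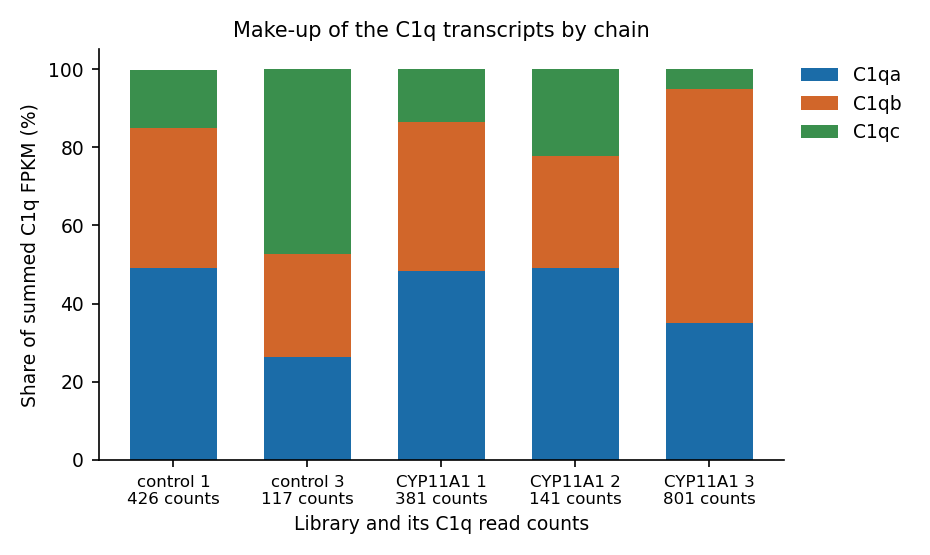
Share of the summed C1q FPKM (%) given by each chain in each library, with the number of C1q read counts under each bar. C1qc makes up 47.3% in control 3 and 5.15% in CYP11A1 3, and C1qb makes up 59.9% in CYP11A1 3.

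Ratios between chains within a library do not depend on how the libraries are scaled, and they were compared between the groups for 3 pairs. The C1qc/C1qa ratio of FPKM was 0.303 and 1.79 in controls 1 and 3, and 0.282, 0.452 and 0.147 in CYP11A1 1, 2 and 3. Control 3 was above every other library, and control 1 lay among the CYP11A1 libraries. On the log2 scale this ratio averaged -0.44 ± 1.81 (SD, n = 2) in the control group and -1.91 ± 0.81 (SD, n = 3) in the CYP11A1 group (difference -1.47, two-sided exact permutation test, p = 0.4, adjusted p = 0.6 over the 3 pairs). The C1qc/C1qb ratio differed by -1.59 (two-sided exact permutation test, p = 0.4, adjusted p = 0.6), and the C1qb/C1qa ratio differed by 0.11 (p = 0.9, adjusted p = 0.9). With 10 splits the smallest p possible is 0.1, so that this test could not have passed a threshold of 0.05, and in each pair the values of the groups overlapped. Without control 3, the C1qc/C1qa difference was -0.19 and the C1qc/C1qb difference was -0.53, and without control 1 they were -2.76 and -2.64. Without CYP11A1 3, the C1qc/C1qb difference was -0.71, and that of C1qb/C1qa turned to -0.33.

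The comparison of the groups addresses whether C1q expression in microglia differed with the CYP11A1 treatment of the dam. After TMM scaling, C1qa averaged 9.28 ± 8.98 CPM (SD, n = 2) in the control group and 16.4 ± 11.01 CPM (SD, n = 3) in the CYP11A1 group. C1qb averaged 7.40 ± 6.17 CPM in the control group and 18.6 ± 14.5 CPM in the CYP11A1 group. C1qc averaged 5.21 ± 0.39 CPM in the control group and 4.26 ± 3.09 CPM in the CYP11A1 group. The 2 groups overlapped for each chain, and 14.4% of the 10346 features tested had groups that did not overlap. By library, TMM-scaled C1qa was at 15.6 and 2.94 CPM in controls 1 and 3 and at 26.7, 4.78 and 17.7 CPM in CYP11A1 1, 2 and 3. C1qb was at 11.8 and 3.03 CPM in the controls and at 21.7, 2.88 and 31.3 CPM in CYP11A1 1, 2 and 3. C1qc was at 4.93 and 5.48 CPM in the controls and at 7.81, 2.25 and 2.71 CPM in CYP11A1 1, 2 and 3. The scaling thus placed CYP11A1 1 highest for C1qa and C1qc, whereas CYP11A1 3 was highest for C1qa and control 3 for C1qc by total counts alone.

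None of the chains differed between the groups beyond the spread between libraries. The log2 fold change of C1qa was 0.79 with a standard error of 1.005 and a 95% interval from -1.40 to 2.98 (edgeR's quasi-likelihood test, adjusted p = 0.9998 with the Benjamini-Hochberg method over all features). That of C1qb was 1.31 with a standard error of 1.07 and an interval from -1.02 to 3.65 (edgeR's quasi-likelihood test, adjusted p = 0.9998). That of C1qc was -0.36 with a standard error of 0.99 and an interval from -2.52 to 1.79 (edgeR's quasi-likelihood test, adjusted p = 0.9998). Each interval includes 0, and none shows that the groups were alike. Among all features tested, 0 had an adjusted p under 0.05 in this test (0%), 441 had an unadjusted p under 0.05 (4.26%), and DESeq2 called 12 of the 10427 features to which it gave an adjusted p (0.115%). The members' values stood beside a median log2 fold change of 0.15 over all features. The coefficient of biological variation is edgeR's estimate of the spread between libraries of a group beyond counting error. It was 0.814 for C1qa, 0.842 for C1qb and 0.870 for C1qc, against 1.05 shared by all features. Each estimate is drawn toward those of other features, so these values do not rank the chains by their own spread. Over all 5 libraries, the SD of TMM-scaled CPM was 72.3% of the mean for C1qa, 87.2% for C1qb and 48.6% for C1qc.

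The values of C1qa and C1qb moved with the libraries used. Without control 1, the log2 fold change was 2.45 for C1qa (edgeR's quasi-likelihood test, adjusted p = 0.9998) and 2.61 for C1qb (adjusted p = 0.9998). Without control 3, it was -0.03 for C1qa (edgeR's quasi-likelihood test, adjusted p = 0.994) and 0.55 for C1qb (adjusted p = 0.872). In these fits the remaining control was assumed to vary like the CYP11A1 libraries. Without CYP11A1 1, the log2 fold change of C1qa was 0.25, and without CYP11A1 3 that of C1qb was 0.69. C1qc stayed between -0.44 and -0.33 when either control was left out, and it was -1.06 without CYP11A1 1. In a setting chosen after seeing the data, control 1 and CYP11A1 3, which had the fewest features detected, were both left out. With control 3 as the only control, the log2 fold changes were 2.39 for C1qa, 1.98 for C1qb and -0.17 for C1qc.

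**Figure D4:**
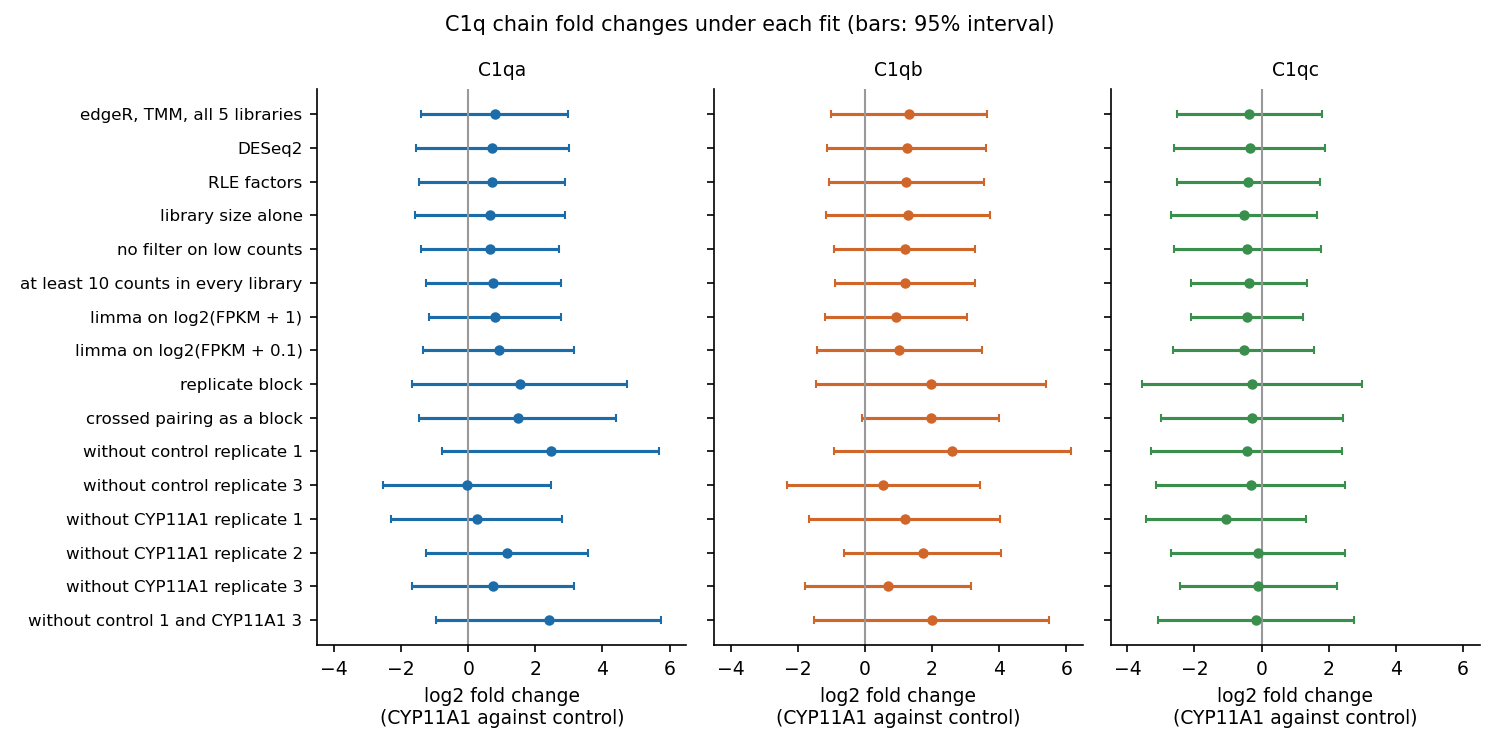
Log2 fold change (CYP11A1 against control) of each chain, with its 95% interval, under the fit on all 5 libraries (top) and under each alternative. Every interval includes 0, and the point for C1qa moves from 2.45 without control 1 to -0.03 without control 3.

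The profiles of the chains were then compared across the libraries on the log2(CPM + 1) scale after TMM scaling, each centred on its mean. The root mean square difference between C1qa and C1qb was 0.48 log2 units, and C1qb was the 33rd closest of 4776 features to C1qa. C1qc differed from C1qa by 1.03 and from C1qb by 1.27 log2 units, and it was the 1563rd closest feature to C1qa, although its gene lies between the other two. Pearson's r over the 5 libraries was 0.927 for C1qa with C1qb, 0.319 for C1qa with C1qc and 0.193 for C1qb with C1qc, and these values share the libraries and their scaling. By total counts alone, C1qc was highest in control 3 (5.82 CPM), where C1qa and C1qb were lowest (3.12 and 3.22 CPM). The positive r values of C1qc do not hold on that scale. Among 4774 other features that reached 10 counts in each library, those with Ensembl identifiers closest to the mean profile of the family were ENSRNOG00000016456 (0.23 log2 units) and ENSRNOG00000007089 (0.25 log2 units). The median feature differed from this profile by 0.98 log2 units. The mean profile combines chains that differed from each other, so closeness to it does not show closeness to C1qc.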

How the data were processed

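According to the paper, microglial RNA was reverse transcribed and amplified with a low-input SMART-Seq kit, whereas the labels name a kit for small RNA. The authors deposited raw read counts per feature and FPKM. The submitters' processing notes name HISAT2 2.0.4 and HTSeq 0.9.1, and the genome build, annotation, strand setting and treatment of reads shared between genes are not given in the sources used here. All 70558 deposited FPKM values above 0 gave a whole-number feature length (within 0.01 bases) when set against count and library total, so both tables hold one measurement. Amplification without molecular identifiers can widen the spread between libraries.

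Groups and columns were assigned from the treatment labels and titles. The files list identifiers alone, and the pairing of the 3 identifiers with C1qa, C1qb and C1qc came with the choice of the members. Counts of the 2 control and 3 CYP11A1 libraries were compared with edgeR 4.0.16 (glmQLFit, glmQLFTest) in R 4.3.3, after TMM scaling and filterByExpr with a minimum count of 10. All 10346 features that passed, the 3 chains included, were tested, with the group as the only term, and the Benjamini-Hochberg method was used for adjustment. Standard errors were the log2 fold change divided by the square root of F. Chain ratios were compared with two-sided exact permutation tests. Wilson and Poisson intervals were at the 95% level. DESeq2 1.42.0 and limma 3.58.1 served as alternatives. The script was tested on simulated data.

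The members and lists were chosen with earlier results of these data known. The genes to be named were the 3 members, the most abundant of several fixed lists (complement factors, complement receptors and regulators, C1q/TNF family, myeloid transcription factors, cell type markers) and the 10 features most like the family. The lists, and Cyp11a1 itself, were not analysed here, because 0 of the 35495 identifiers were paired with a symbol, and for the same reason 2 of the 10 like features are printed, by identifier.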

Additional observations from a re-analysis of the deposited data

How the results depend on the processing

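None of the 15 alternative fits called a chain, and the adjusted p of the chains ranged from 0.872 to 1. C1qb kept a positive and C1qc a negative log2 fold change in all 15, and C1qa a positive one in 14. Over all features, edgeR's quasi-likelihood test called 0 at the adjusted threshold of 0.05 (441 unadjusted), against 12 with DESeq2 and 10 without a filter on low counts, and 0 in the other fits, in which between 101 and 752 had an unadjusted p under 0.05. With each library left out in turn, the log2 fold change ranged from -0.0314 to 2.45 for C1qa, from 0.55 to 2.61 for C1qb and from -1.06 to -0.10 for C1qc, and C1qa turned negative (-0.0314) without control 3. The difference in the C1qb/C1qa ratio, 0.11 with all libraries, ranged from -0.33 to 0.44, was -0.12 without control 1 and -0.33 without CYP11A1 3, and was -0.56 without both control 1 and CYP11A1 3. This last setting was chosen after seeing the data. The cause of these changes was not tested.

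With the replicate block on the libraries numbered 1 and 3, 0 features were called (101 at an unadjusted p under 0.05), and the log2 fold changes were 1.53 for C1qa, 1.97 for C1qb and -0.28 for C1qc. Same-numbered libraries did not vary together (r = -0.266 across 10346 features, over 2 pairs). The crossed pairing, chosen after this value was seen, gave 0 calls and 355 at an unadjusted p under 0.05. With at least 100 counts in every library, 3 of the 10 features most like the family were kept, since the others have fewer counts in at least 1 library. Scaling by library totals or RLE factors moved the group means of each chain by less than their SD, and ranking Ensembl features alone moved the median ranks by less than the SD between libraries. List medians under other scalings could not be computed, because identifiers were not paired with symbols. The lowest count of a chain, 30 for C1qa in control 3, had a 95% Poisson interval of 20.2 to 42.8 counts, which limits the precision of that value.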
